A study of Mus musculus with 20 samples.

Results

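Complement is a cascade of serum and cell-surface proteins that tags damaged cells and microbes for uptake by phagocytes. In the classical pathway the C1q complex is built from the products of C1qa, C1qb and C1qc. It binds its target and activates the attached proteases, which cleave C4, and C3 is cleaved in a later step. Serping1 encodes C1 inhibitor, which blocks those proteases, and C3ar1 encodes the receptor for the C3a fragment released from C3. C1q chains are made largely by tissue macrophages and dendritic cells, and C1 inhibitor by many stromal cells as well as the liver. The data were examined for these complement components and regulators, 7 genes in all (C1qa, C1qb, C1qc, C3, C3ar1, C4b and Serping1), chosen by the gene symbol that the platform annotation gives each probe set. Of the 12654 probe sets on the array, 7 were found: 98562_at for C1qa, 96020_at and 100646_f_at for C1qb, 92223_at for C1qc, 103707_at for C3ar1, 99081_at for Serping1, and 103033_at, whose annotation names both C4a and C4b. A single-symbol probe set was thus at hand for 5 of the 7 genes, among 8220 such genes on the array. C3 had no probe set listed under its symbol and was not analysed here, and C4b is described only through the shared probe set.

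The study profiled muscle RNA from mdx mice, which carry a mutation of the dystrophin gene Dmd and develop muscle degeneration, and from control mice, all 8 weeks old, on 1-colour Affymetrix arrays. The 4 groups of 5 arrays each were leg muscle of mdx mice, leg muscle of control mice, extraocular muscle (the muscles that move the eye) of mdx mice, and extraocular muscle of control mice. Extraocular muscle is known to be largely spared in dystrophin deficiency, so the design asks how the mdx genotype changes RNA levels in each muscle and whether the change differs between the muscles. The control leg source is labelled as gastrocnemius and soleus, while the mdx leg source is labelled only as leg muscle. The labels give no strain, sex or pooling, and do not say whether the 5 arrays of a group came from separate animals, so the p-values measure the spread between these arrays, which may be technical. Control and mdx arrays also carry different descriptions, so that genotype and any batch that goes with those descriptions cannot be told apart in either muscle.

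Signals are given on a linear scale after each array was scaled to a trimmed mean of 500. Differences are log2 values, with signals under 50 set to 50. A probe set was tested if its signal reached 200 on at least 5 arrays, which left 7204 probe sets, among them all 7 described here. A difference is said to have passed, and a gene to have risen or fallen, where its limma p-value adjusted by Benjamini-Hochberg over all 7204 tested probe sets of that comparison was under 0.05. Signals of different probe sets were not compared, since each has its own probe response. Between 47.2% and 52.0% of probe sets reached 200 on an array. Dmd read 37.3 to 126 in leg mdx muscle, against 100 to 212 in leg control muscle, and 102 to 175 in extraocular mdx muscle, against 204 to 325 in extraocular control muscle. Among the leg controls, array 4 stood apart with a Myl2 (slow myosin light chain) signal of 45.2, against at least 8608 on the other 4, and array 1 had the lowest mean correlation with its group of all 20 arrays (0.892). Leg control array 4 also had Hoxd8, a homeobox gene of limb position, at 94.9, against 737 to 1416 on the other leg controls and 56.1 to 218 on the extraocular arrays. The leg differences below are therefore also given without leg control arrays 1 and 4. The log2 ratio of the actin control probe sets for the 3' and 5' end, a sign of RNA or labelling quality, was -3.61 to -0.22 on the leg mdx arrays, against 0.06 to 0.94 on the leg control arrays, with no overlap. On the extraocular arrays it was -0.38 to 0.53 in mdx mice, against -0.13 to 0.41 in control mice. The same ratio for Gapdh averaged -2.50 in leg mdx muscle and -2.48 in leg control muscle, and -1.27 in extraocular mdx muscle and -2.35 in extraocular control muscle. Negative ratios mean that the 5' probe set read higher than the 3' one. The part of the actin and Gapdh ratios in the results was not tested.

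All 3 C1q chains rose in leg mdx muscle, by 3.53-fold to 9.68-fold, while in extraocular mdx muscle none passed. C1qa had 3753, 4183, 5758, 4950 and 5338 units on the leg mdx arrays, against 592, 932, 901, 842 and 968 on the leg control arrays. In extraocular muscle the C1qa signals were 2070, 880, 674, 987 and 1644 on the mdx arrays, against 1610, 1087, 844, 1068 and 1271 on the control arrays. Every leg mdx array was thus above every array of the other 3 groups, and the extraocular groups lay among each other. The mean C1qa signal was 4796 ± 822 in leg mdx muscle and 847 ± 150 in leg control muscle (SD, n = 5 each), a 5.68-fold difference (log2 2.50, SE 0.24, 95% interval of the fold 4.02 to 8.02, limma adjusted p = 8.81e-08). In extraocular muscle the corresponding log2 difference was -0.00, with a 95% interval of -0.50 to 0.50 (limma adjusted p = 1.00).

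C1qb, measured by the probe set 96020_at, had 2837, 2655, 4428, 4161 and 4665 units on the leg mdx arrays, against 216, 404, 425, 477 and 432 on the leg control arrays. On the extraocular arrays it had 1534, 602, 580, 520 and 1574 units in mdx mice, against 818, 371, 507, 591 and 832 units in control mice. Again no leg mdx array overlapped with another group, and extraocular mdx arrays 1 and 5 stood well above the other 3 of their group. The mean was 3749 ± 935 in leg mdx muscle and 391 ± 101 in leg control muscle, a 9.68-fold difference (log2 3.27, SE 0.31, limma adjusted p = 8.34e-08), the highest fold among the complement probe sets. The extraocular log2 difference was 0.51 (95% interval -0.14 to 1.16, limma adjusted p = 0.999). A second C1qb probe set, 100646_f_at, is of the Affymetrix type whose probes can be shared by a gene family, and it did not follow the first. It read 236 ± 22.7 in leg mdx muscle and 146 ± 63.9 in leg control muscle (log2 difference 0.84, limma adjusted p = 0.211; 1.02 without leg control arrays 1 and 4), and 156 ± 112 in extraocular mdx muscle and 232 ± 89.4 in extraocular control muscle (log2 difference -0.73, limma adjusted p = 0.999). Across the 20 arrays, which share their groups, its correlation with 96020_at was 0.14. With the mean log2 signal of both probe sets the leg fold of C1qb was 4.17 (log2 2.06, limma adjusted p = 2.01e-07). The results on C1qb below are those of 96020_at.

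C1qc had 4850, 5259, 7013, 5861 and 6238 units on the leg mdx arrays, against 1227, 1654, 1657, 1904 and 1876 on the leg control arrays. Its extraocular signals were 2436, 1849, 1884, 1650 and 2310 units in mdx mice, against 2665, 1812, 1835, 2003 and 2440 in control mice. The leg groups were fully apart and the extraocular groups covered almost the same range. The mean was 5844 ± 845 in leg mdx muscle and 1664 ± 271 in leg control muscle, a 3.53-fold difference (log2 1.82, SE 0.15, limma adjusted p = 1.13e-08), and the extraocular log2 difference was -0.08 (95% interval -0.39 to 0.22, limma adjusted p = 0.999). Without leg control arrays 1 and 4 the leg log2 differences were 2.34 for C1qa, 3.12 for C1qb and 1.75 for C1qc, and all 3 still passed.

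**Figure D1:**
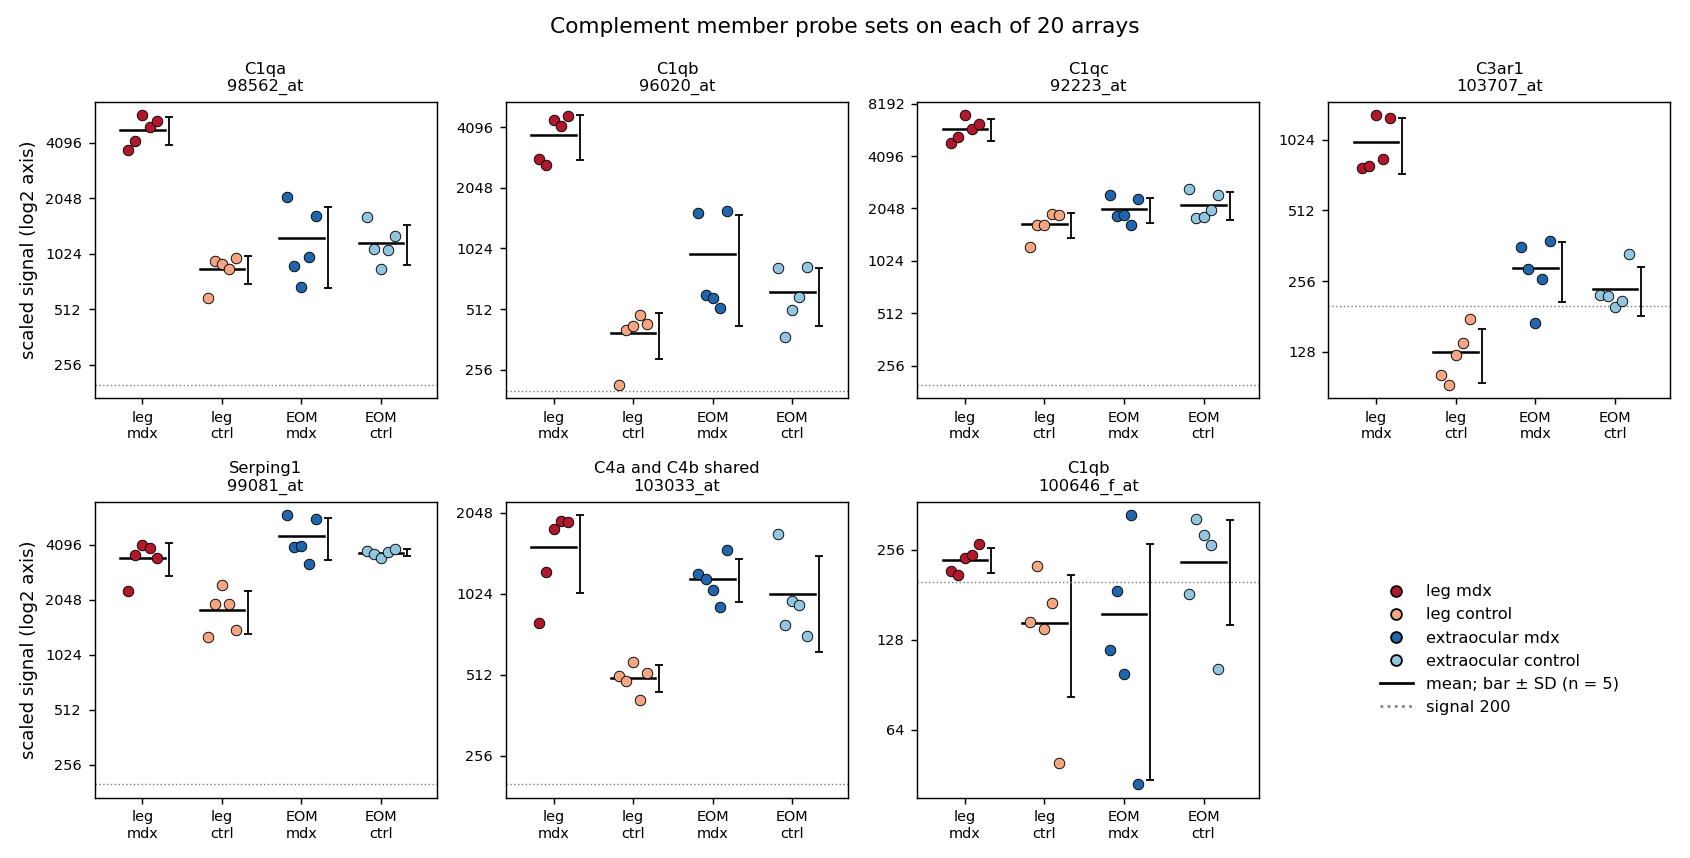
Scaled signal of each complement probe set on every array (log axis, 1 point per array), with leg mdx, leg control, extraocular mdx and extraocular control arrays from left to right a line at each group mean, a bar of 1 SD either side (n = 5), and a dotted line at a signal of 200. The C1q chains and C3ar1 set the leg mdx arrays apart from the other 3 groups, whereas for Serping1 the extraocular mdx mean of 4588 and the extraocular control mean of 3720 both lie above the leg mdx mean of 3477.

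The C1q genes lie next to each other on mouse chromosome 4, in the order C1qb, C1qc, C1qa, with no other protein-coding gene between them in the RefSeq annotation. Since the 3 genes moved together across the 20 arrays (pairwise Pearson r of log2 signal 0.963 to 0.976, as a description of arrays that share groups), the promoters of C1qb and C1qc are shown, 250 bases before to 50 bases after the gene start. The C1qb promoter is chr4:136886151-136886450 and the C1qc promoter chr4:136892865-136893164, both on the minus strand of GRCm38.p6, from RefSeq, whose table held 4 of the 7 genes. Capitals mark GAGGAA, the core bound by PU.1, an ETS factor of myeloid cells, or its reverse complement.
C1qb: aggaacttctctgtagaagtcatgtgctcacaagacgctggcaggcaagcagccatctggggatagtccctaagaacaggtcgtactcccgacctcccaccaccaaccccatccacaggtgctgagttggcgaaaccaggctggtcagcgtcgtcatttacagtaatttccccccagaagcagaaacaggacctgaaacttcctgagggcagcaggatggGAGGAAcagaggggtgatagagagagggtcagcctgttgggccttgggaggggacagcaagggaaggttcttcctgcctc
C1qc: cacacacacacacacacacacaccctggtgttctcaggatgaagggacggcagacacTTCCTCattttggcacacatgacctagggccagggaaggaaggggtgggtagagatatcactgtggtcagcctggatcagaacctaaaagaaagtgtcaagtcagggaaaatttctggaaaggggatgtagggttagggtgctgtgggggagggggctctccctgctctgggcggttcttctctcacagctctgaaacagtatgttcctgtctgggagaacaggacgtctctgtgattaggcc
Both strands were searched for GAGGAA, for the interferon-type motif TTCNNNGAA and for the TATA box letters TATAAA, which do not overlap in these windows. C1qb held GAGGAA on the printed strand with its first base 30 bases before the start, and C1qc held it on the opposite strand, 193 bases before the start. The C3ar1 promoter, on chromosome 6, held TATAAA only. These matches describe letters, not bound sites: of 32817 mouse promoters of the same length, 28.3% hold GAGGAA, 8.3% TTCNNNGAA and 13.6% TATAAA.

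C3ar1, the C3a receptor, rose 7.81-fold in leg mdx muscle. It had 776, 788, 1299, 843 and 1270 units on the leg mdx arrays, against 102, 92.9, 124, 140 and 177 on the leg control arrays, so that the leg groups were far apart. The extraocular signals were 357, 288, 170, 261 and 380 units in mdx mice, against 224, 220, 198, 211 and 335 in control mice, and these overlapped. The mean was 995 ± 265 in leg mdx muscle and 127 ± 33.2 in leg control muscle (log2 difference 2.97, SE 0.24, limma adjusted p = 1.13e-08; 2.93 without leg control arrays 1 and 4). The extraocular log2 difference was 0.27 (95% interval -0.24 to 0.77, limma adjusted p = 0.999).

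Serping1, encoding C1 inhibitor, rose less in leg mdx muscle, by 1.94-fold, and its strongest signals were in extraocular muscle. It had 2302, 3593, 4071, 3961 and 3459 units on the leg mdx arrays, against 1285, 1942, 2467, 1951 and 1399 on the leg control arrays. The overlap came from leg mdx array 1, which was below the highest leg control array. The mean was 3477 ± 704 in leg mdx muscle and 1809 ± 478 in leg control muscle (log2 difference 0.96, SE 0.19, limma adjusted p = 0.000822; 0.86 with limma adjusted p = 0.00806 without leg control arrays 1 and 4). In extraocular muscle Serping1 had 5971, 4003, 4061, 3217 and 5687 units on the mdx arrays, against 3784, 3673, 3491, 3768 and 3882 on the control arrays. The extraocular mdx arrays spread widely around a narrow control range, and the log2 difference was 0.26 (95% interval -0.13 to 0.65, limma adjusted p = 0.999).

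The probe set shared by C4a and C4b, closely related genes whose transcripts it cannot tell apart, rose 2.92-fold in leg mdx muscle. Its signals were 799, 1239, 1776, 1911 and 1885 units on the leg mdx arrays, against 505, 484, 571, 411 and 518 on the leg control arrays, with no overlap. In extraocular muscle it had 1211, 1158, 1053, 917 and 1495 units in mdx mice, against 1704, 785, 960, 932 and 713 in control mice, with overlap. The leg log2 difference was 1.55 (SE 0.23, limma adjusted p = 3.95e-05; 1.47 without leg control arrays 1 and 4) and the extraocular one 0.25 (95% interval -0.23 to 0.73, limma adjusted p = 0.999).

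Counting each gene once by its brightest probe set with a single symbol, 5 of 5 tested genes rose in leg mdx muscle, where 10.7% of all tested probe sets rose and 7.15% fell. In 4 of the 5 the leg groups did not overlap, which held for 13.6% of all tested probe sets. The median log2 difference of the 5 genes was 2.50, and that of all tested probe sets -0.06. In extraocular mdx muscle 0 of 5 passed in limma, 0 of 5 had an unadjusted p under 0.05, and the median was 0.26 with 3 of 5 differences above 0, against -0.02 for all tested probe sets. Of all tested probe sets only 0.0833% passed there in either direction, so the extraocular count lies at the background. These are bulk RNA samples, in which more cells of a type and more RNA per cell cannot be told apart.

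The mdx effect itself was then compared between the muscles, as the leg log2 difference minus the extraocular one. It was larger in leg for C1qb by 2.77 (SE 0.44, limma adjusted p = 0.000351), for C3ar1 by 2.70 (SE 0.34, limma adjusted p = 3.20e-05), for C1qa by 2.51 (SE 0.34, limma adjusted p = 5.91e-05) and for C1qc by 1.90 (SE 0.21, limma adjusted p = 7.38e-06). Without leg control arrays 1 and 4 the 4 still passed, at 2.61 for C1qb, 2.67 for C3ar1, 2.35 for C1qa and 1.83 for C1qc. For Serping1 the difference of 0.69 did not pass (95% interval 0.14 to 1.24, limma adjusted p = 0.149), although without leg mdx array 1 it was 0.83 with limma adjusted p = 0.0495. Without leg control arrays 1 and 4 it was 0.59 (limma adjusted p = 0.284). Thus 4 of 5 genes passed in the direction of a larger leg effect, as did 4.93% of all tested probe sets, and the median was 2.51, against -0.02 for all tested probe sets. The shared C4 probe set also passed, at 1.30 (limma adjusted p = 0.0185), but not without leg control arrays 1 and 4 (limma adjusted p = 0.0546) or with no filter on dim probe sets (limma adjusted p = 0.0524).

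**Figure D2:**
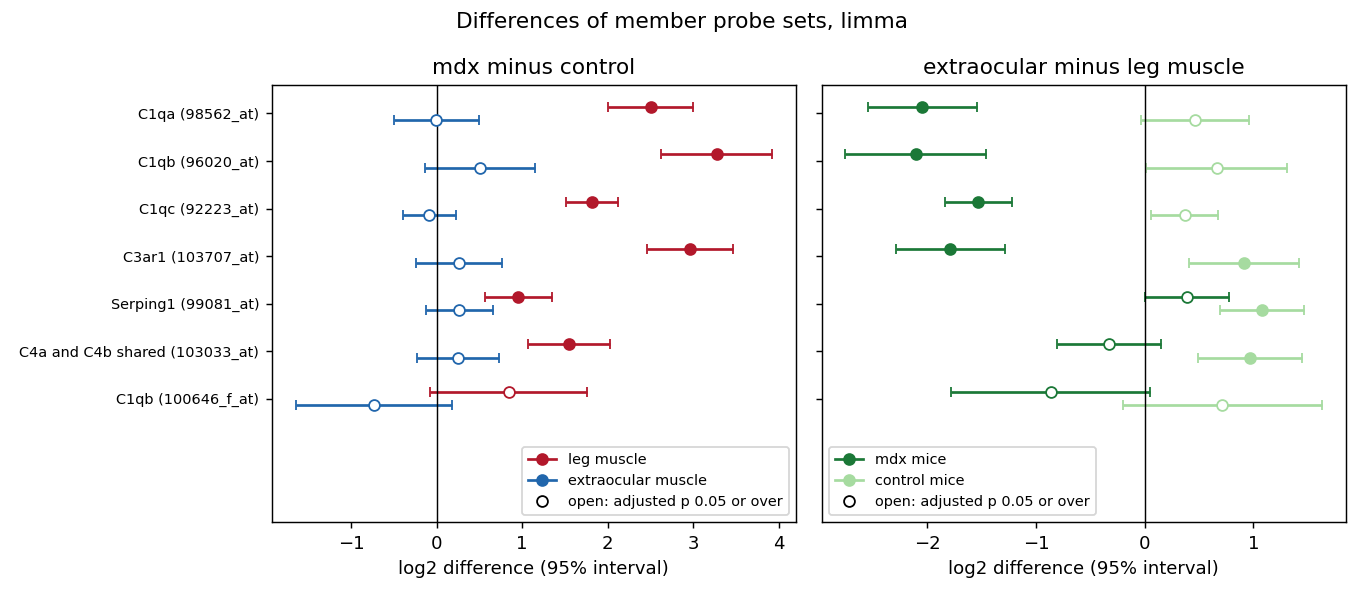
Log2 differences with 95% intervals for each complement probe set (points filled where the limma adjusted p was under 0.05), with mdx minus control in leg and extraocular muscle on the left and extraocular minus leg muscle in mdx and control mice on the right. On the left the leg values of the C1q chains run from 1.82 to 3.27 while the extraocular intervals all include 0; on the right the C1q and C3ar1 values are below 0 in mdx mice and above 0 in control mice.

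Between the muscles the order of the genes depended on genotype. In mdx mice the C1q chains and C3ar1 were lower in extraocular than in leg muscle. The log2 differences were -2.05 for C1qa (limma adjusted p = 2.00e-06), -2.11 for C1qb (limma adjusted p = 4.01e-05), -1.53 for C1qc (limma adjusted p = 1.66e-07) and -1.79 for C3ar1 (limma adjusted p = 1.32e-05). No array overlapped in any of the 4, but the share of all tested probe sets without overlap was not computed for comparisons between the muscles. Serping1 did not pass in mdx mice, at 0.39 (limma adjusted p = 0.171). That is 4 of 5 genes lower and 0 higher in extraocular mdx muscle, where 8.83% of tested probe sets were lower and 9.24% higher. The comparison shares its leg mdx arrays with the leg comparison above.

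In control mice, by contrast with a median of -1.79 in mdx mice, the median log2 difference of extraocular over leg muscle was 0.66, against 0.02 for all tested probe sets. C3ar1 was 1.88-fold higher in extraocular control muscle, at 238 ± 55.2 units, against 127 ± 33.2 in leg control muscle (log2 0.91, limma adjusted p = 0.0110). Serping1 was 2.11-fold higher, at 3720 ± 148 units in extraocular control muscle, against 1809 ± 478 in leg control muscle (log2 1.08, limma adjusted p = 0.000266). Neither gene had overlapping arrays in this comparison, for which the share of all tested probe sets without overlap was also not computed. The C1q chains did not pass, with log2 differences of 0.46 for C1qa (limma adjusted p = 0.213), 0.66 for C1qb (limma adjusted p = 0.166) and 0.37 for C1qc (limma adjusted p = 0.0943). So 2 of 5 genes were higher and 0 lower in extraocular control muscle, where 10.3% of tested probe sets were higher and 7.41% lower. With only the control groups in the fit, 1 of the 5 passed, Serping1, since C3ar1 reached 200 on only 4 of those 10 arrays and was not tested. The shared C4 probe set was also higher, at 1019 ± 397 units in extraocular control muscle, against 498 ± 58.1 in leg control muscle (log2 0.97, limma adjusted p = 0.00494).

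Ordered by mean signal over the 4 groups, C1qa, C1qb and C3ar1 ran from leg mdx through extraocular mdx and extraocular control down to leg control. Of the neighbours in that order, leg mdx and extraocular mdx did not overlap for any of the 3, extraocular mdx and extraocular control overlapped for all 3, and extraocular control and leg control were apart for C3ar1 alone. For C1qc the extraocular groups changed places, within their overlap. Serping1 had a different order, from extraocular mdx through extraocular control and leg mdx down to leg control, in which every pair of neighbours overlapped.

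The other complement genes were followed through a list of 49, of which 29 had a probe set with a single symbol and 17 were tested. In leg mdx muscle 6 of 17 rose and 1 fell, 10 did not pass, and the median log2 difference was 0.25. Of all tested probe sets 10.7% rose and 7.15% fell, with a median of -0.06. Of the 6, 4 were receptors or C1q-binding proteins, 1 was an alternative pathway protein and 1 a regulator. Cfp, or properdin, which stabilises the alternative pathway's C3 convertase, had 585 ± 185 units in leg mdx muscle and 140 ± 29.5 in leg control muscle, a 4.09-fold difference (log2 2.03, limma adjusted p = 1.37e-05). Itgb2, the shared beta chain of complement receptors 3 and 4, rose with 395 ± 103 units in leg mdx muscle and 95.4 ± 58.3 in leg control muscle (log2 2.08, limma adjusted p = 0.00474). As 2 of its leg control arrays were under 50, that size depends on the floor. Cfp and Itgb2 were under 200 on all 5 leg control arrays and reached the filter only with their leg mdx arrays. Itgax, the alpha chain of complement receptor 4, had 837 ± 127 units in leg mdx muscle and 367 ± 99.3 in leg control muscle (log2 1.22, limma adjusted p = 2.70e-05). Cd93, a surface protein once described as a C1q receptor, had 1219 ± 187 units in leg mdx muscle and 663 ± 150 in leg control muscle (log2 0.89, limma adjusted p = 0.00358). Without leg control arrays 1 and 4 these 4 genes still passed, with log2 differences of 2.06 for Cfp, 2.01 for Itgb2, 0.96 for Itgax and 0.87 for Cd93.

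Among regulators in leg muscle, Clu, a fluid-phase inhibitor of the terminal complex, rose with 1988 ± 227 units in leg mdx muscle and 1241 ± 218 in leg control muscle (log2 0.69, limma adjusted p = 0.000745; 0.62 without leg control arrays 1 and 4). Cd59a, which blocks the terminal complex on the cell surface, fell to 892 ± 180 units in leg mdx muscle, against 1600 ± 599 in leg control muscle (log2 -0.79, limma adjusted p = 0.0255). Its call ended without leg control array 1 or 5 or leg mdx array 3, 4 or 5 (limma adjusted p up to 0.0834) and without leg control arrays 1 and 4 together (limma adjusted p = 0.0804). C5ar1, the C5a receptor, rose with 990 ± 212 units in leg mdx muscle and 707 ± 104 in leg control muscle (log2 0.47, limma adjusted p = 0.0438). That call ended without leg control array 1, 2, 4 or 5 or leg mdx array 3, 4 or 5 (limma adjusted p up to 0.138), and without leg control arrays 1 and 4 together (limma adjusted p = 0.176). It also ended under 6 settings that kept every array of these groups, among them quantile normalization, no filter on dim probe sets and array weights (limma adjusted p 0.0534 to 0.103). Of the terminal components C8g and C9 were tested and neither passed, at -0.43 and 0.09 (limma adjusted p = 0.214 for C8g and 0.913 for C9), nor without leg control arrays 1 and 4 (-0.51 for C8g and 0.04 for C9). C1ra, a protease of the C1 complex, has 3 tested probe sets that gave leg log2 differences of 0.42, 0.77 and 1.49. Of these 96411_f_at passed (limma adjusted p = 0.0232), while the brightest, 95415_f_at, by which the gene is counted, did not (limma adjusted p = 0.0529). Like 100646_f_at, 95415_f_at and 96411_f_at are of the type whose probes can be shared by a gene family. Without leg control arrays 1 and 4 the differences of the 3 probe sets were 0.39, 0.84 and 1.38, and again 96411_f_at alone passed (limma adjusted p = 0.0353).

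In extraocular mdx muscle 0 of the 17 other complement genes passed in limma, against 0.0833% of all tested probe sets. The median log2 difference was 0.06, against -0.02 for all tested probe sets. An unadjusted p under 0.05 was found for 3 of the 17, but the share of all tested probe sets under it was not computed. The mdx effect was larger in leg for 2 of 17, Cfp by 1.95 (limma adjusted p = 0.00352) and Itgax by 1.16 (limma adjusted p = 0.00591), where 4.93% of all tested probe sets passed that way; the median was 0.48, against -0.02 for all tested probe sets. Without leg control arrays 1 and 4 both still passed, at 1.98 for Cfp and 0.90 for Itgax. Between the muscles the largest difference among the 17 was that of Cd55, the decay-accelerating factor that dissociates C3 convertases on cell surfaces. Cd55 was under 200 on all 5 arrays of each extraocular group and reached the filter only with its leg arrays, where it is high. It had 124 ± 21.1 units in extraocular mdx muscle and 569 ± 98.7 in leg mdx muscle (4.59-fold lower, log2 -2.20, limma adjusted p = 3.23e-07). In control mice it had 110 ± 16.9 units in extraocular muscle and 428 ± 121 in leg muscle (3.78-fold lower, log2 -1.92, limma adjusted p = 2.02e-06). The Cd55 groups did not overlap in either genotype, with no share of all tested probe sets computed for this. Cd55 did not pass for mdx against control in leg muscle (log2 0.44, limma adjusted p = 0.196).

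In mdx mice 8 of the 17 were lower and 1 higher in extraocular than in leg muscle, where 8.83% of all tested probe sets were lower and 9.24% higher. Beside Cd55 the lower ones were Cfp (log2 -1.59), Itgax (-1.11), Clu (-0.76), Cd93 (-0.75) and C5ar1 (-0.61), together with Itgb2 and Cd59b. Itgb2 had a log2 difference of -1.63 (limma adjusted p = 0.0253), and its call ended without leg mdx array 3 or 5 or extraocular mdx array 2 or 4 (up to 0.0787). For Cd59b the difference was -0.50 (limma adjusted p = 0.0451), and its call ended without any 1 of the arrays of these groups except leg mdx 1 and 4 (up to 0.105). The one higher gene was Cd59a, with 2161 ± 297 units in extraocular mdx muscle and 892 ± 180 in leg mdx muscle (log2 1.29, limma adjusted p = 0.000588). In control mice 1 of 17 was higher in extraocular muscle, C1ra (log2 0.43, limma adjusted p = 0.0455), and 2 were lower, Cd55 and Clu (log2 -0.41, limma adjusted p = 0.0355). With 10.3% of all tested probe sets higher and 7.41% lower, these counts lie near the background. The C1ra and Clu calls each ended in 8 of the 10 fits that left out 1 array, with limma adjusted p up to 0.124 for C1ra and 0.102 for Clu.

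**Figure D3:**
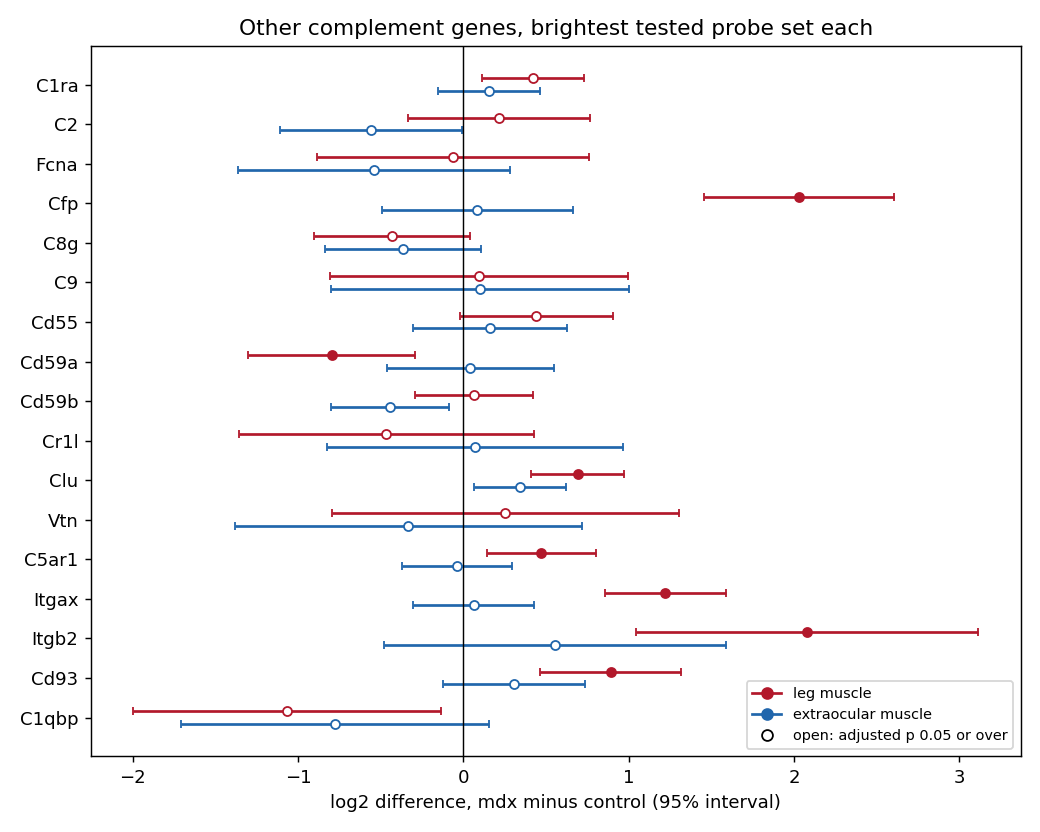
Log2 difference of mdx over control in leg and extraocular muscle for each of the 17 tested genes of the wider complement list, with 95% intervals. Itgb2 (2.08) and Cfp (2.03) are farthest to the right in leg muscle, and no extraocular value passed.

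Macrophage genes moved with the C1q chains and C3ar1. Of 12 tested macrophage markers all 12 rose in leg mdx muscle, with a median log2 difference of 3.38. In extraocular mdx muscle 1 of 12 rose, with a median of 0.51. Adgre1, Cd53 and Lgals3 were under 200 on all 5 leg control arrays and reached the filter only with their leg mdx arrays. Their rise is thus partly built into the leg count and median. Of all tested probe sets 10.7% rose in leg and 0.0416% in extraocular mdx muscle. The summed signal of the 15 markers with a probe set was 33050 to 41696 in leg mdx muscle, against 3408 to 4678 in leg control muscle, and 6119 to 11401 in extraocular mdx muscle, against 5448 to 6954 in extraocular control muscle. Extraocular mdx arrays 1 and 5, the highest of their group for all 3 C1q chains, C3ar1 and Serping1, also had the highest mean log2 signal of macrophage markers, at 9.27 and 9.46, against 8.38 to 8.73 on the other 3. Fibroblast markers moved as well: 8 of 9 rose in leg mdx muscle and 5 of 9 were higher in extraocular than in leg muscle of control mice, where 10.3% of all tested probe sets were. Their summed signal was 41323 to 46589 in leg mdx muscle, against 24229 to 29126 in leg control muscle, and 29974 to 41482 in extraocular mdx muscle, against 26658 to 45276 in extraocular control muscle. No deposited value was at 0 (the lowest was 0.4), so a marker signal above 0 does not show expression. Among the macrophage markers Cd53 was under 50 on all 5 extraocular control arrays, and Fcer1g on 3 arrays of each group. The part of macrophages and fibroblasts in the complement results was not tested. Hepatocyte markers, whose source tissue makes most serum complement, were summed over 6 genes. The sums were 349 to 466 in leg mdx muscle, against 217 to 504 in leg control muscle. In extraocular muscle they were 318 to 579 in mdx mice, against 192 to 479 in control mice. Of the 6 genes only Ttr reached the filter, and Apoh was under 50 on all 5 arrays of each group, so the sums hold mostly dim genes.

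Relative to the mean of the 12 macrophage markers, the mean log2 signal of the 3 C1q chains was lower in leg mdx than in leg control muscle. The difference between the means, whose level has no meaning of its own across probe sets, was 0.91 to 1.16 in leg mdx muscle, against 1.36 to 2.01 in leg control muscle, with no overlap, and 1.23 to 1.68 in extraocular mdx muscle, against 1.54 to 2.23 in extraocular control muscle, with overlap. In group means that was a change of -0.72 in leg muscle and of -0.42 in extraocular muscle (-0.80 in leg muscle without leg control arrays 1 and 4), given as a description with no test. The leg value rests partly on dim markers: with the 9 markers that no array held under 50, an alternative chosen after seeing the data, it was -0.44, and the ranges of 0.63 to 0.92 in leg mdx muscle and 0.89 to 1.48 in leg control muscle then overlapped.

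**Figure D4:**
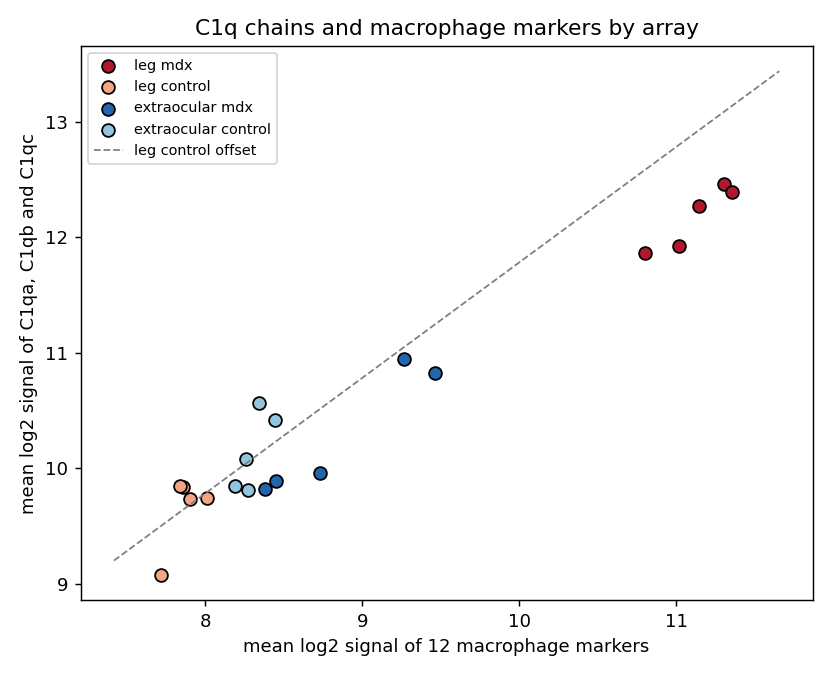
Mean log2 signal of the 3 C1q chains against the mean log2 signal of 12 macrophage markers, 1 point per array, with a dashed line of slope 1 through the leg control means as a guide. Leg mdx arrays lie at the upper right, under the line, and extraocular mdx arrays 1 and 5 lie above the other 3 of their group on both axes.

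The genes whose log2 signal followed each complement gene most closely over the 20 arrays differed between members. Cd74 came first for all 3 C1q chains (Pearson r 0.977 with C1qa, 0.976 with C1qb and 0.965 with C1qc), with Sirpa among the closest 3 for each. For C3ar1 they were Cstb (0.979), Ctsz (0.951) and Ctss (0.949). Serping1 was most like Cyth3 (0.928), Lum (0.918) and Tnxb (0.913), and the shared C4 probe set most like Shisa5 (0.895), Ptbp3 (0.874) and Ugdh (0.864). These values follow the group means that the arrays share. After each array's value was set against its group mean, Cd74 stayed closest to C1qa (0.870), Cdc6 was closest to C1qb (0.874) and C1qc (0.855), Cstb to C3ar1 (0.846), Pacs1 to Serping1 (0.864) and Irf9 to the shared C4 probe set (0.821). Between members, C3ar1 and the C1q chains had r of 0.941 to 0.954, while Serping1 and the C1q chains had r of 0.341 to 0.486 over all arrays and 0.638 to 0.697 within groups.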

How the data were processed

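RNA of 20 muscle samples (4 groups of 5) was measured on 1-colour arrays. The deposited values were 1 linear intensity per probe set, already scaled by the authors to an equal trimmed mean on each array, from the values. How the probes were summarised was not given in the sources used here. Depth has no meaning for arrays, whose number (5 per group) limits the precision. Each array was scaled to a trimmed mean of 500 (2% off each end), floored at 50 and taken to log2. The 66 control probe sets were left out, as were probe sets not reaching 200 on at least 5 arrays, leaving 7204 of 12588. limma 3.58.1 in R 4.3.3 fitted the 4 groups together (16 residual degrees of freedom) with an intensity trend. Its p-values were adjusted by Benjamini-Hochberg within each of 5 contrasts, at 0.05. Simulated arrays with known changes were used to test the procedure.

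Gene names came from the platform annotation: 10298 probe sets had 1 symbol, 363 several and 1993 none listed. The members and gene lists were chosen with earlier results of these data known. By rule, every probe set of a member was named, as were other complement genes that passed in any contrast and the 3 genes most like each member. Genes with several probe sets were counted by the brightest tested one. Same-numbered replicates correlated at -0.08 to 0.23 in their deviations from group means, so the numbers were not taken to pair samples. No 2 arrays held identical values. Alternatives were other scalings, floors and filters, no trend, array weights, a replicate block, fits of only the groups compared, the mean of a gene's probe sets, and leaving out arrays.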

Additional observations from a re-analysis of the deposited data

Results flagged for a closer look

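Among the 28 combinations of probe set and group, 4 had an array far from the other 4 of its group by Dixon's test, which picks out about 1 group in 20 by chance. Leg control array 1 was low for C1qa (592) and for C1qb (216). Extraocular control array 5 was high for C3ar1 (335), and leg mdx array 1 was low for Serping1 (2302).

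The mdx effect differed between the muscles by the test of the difference itself, as leg minus extraocular log2 difference, for C3ar1 (2.70), C1qc (1.90), C1qb (2.77), C1qa (2.51) and the probe set shared by C4a and C4b (1.30).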

How the results depend on the processing

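The counts of complement genes passing kept their values under most alternatives: 5 in leg muscle and 0 in extraocular muscle under every alternative run. The count for extraocular against leg control muscle was 1 with only the groups compared, where C3ar1 missed the filter. The difference of mdx effects gave 4 to 5 when 1 array was left out. With the replicate block the counts were 5 for leg mdx, 0 for extraocular mdx, 4 for the difference of effects, 2 for control and 4 for mdx muscles, and of the named genes the block ended only the leg call of C5ar1 (limma adjusted p = 0.0542). The extraocular difference of C1qa, near 0 throughout, was 0.0013 with log2(value + 50), and -0.21 to 0.19 when 1 array was left out. That of C1qb was -0.11 with the mean of its 2 probe sets, and with that mean its leg difference was 2.06 (4.17-fold against 9.68-fold), its difference of effects 2.17, its difference between the mdx muscles -1.48, and C1qb was also higher in extraocular than in leg control muscle (0.69, limma adjusted p = 0.0235). Over all tested probe sets 6 passed in extraocular muscle, 3 with no filter on dim probe sets, 11 with floor 100 or array weights, and 3 to 11 without 1 array. The fall of Cd59a in leg muscle ended with no filter (limma adjusted p = 0.0674) and with array weights (0.0514). The Itgb2 call between mdx muscles ended with floor 20 (limma adjusted p = 0.103) and with no filter (0.0562). Of other complement genes higher in extraocular than leg control muscle, 0 passed with quantile normalization and 2 with array weights. The cause of these changes was not tested. Of all values of single probe sets under alternatives, 1253 kept their direction and their side of the threshold, 61 lost and 2 gained the call, and 7 turned. Signals near 50 are limited by the floor, and with 5 arrays per group small extraocular differences are not resolved. Over the 7 complement probe sets the 95% intervals there had lower ends of -1.65 to -0.13 and upper ends of 0.18 to 1.16.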
